A study of Rattus norvegicus with 6 samples.

Results

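The interleukin 1 (IL-1) family and inflammasome genes Il1a, Il1b, Il1rn, Il1r1, Il1rap, Il1rl1, Il18, Il33, Casp1 and Nlrp3 were taken by their symbols from a table of 30560 genes, and all 10 were found. They were measured in polyadenylated RNA of primary ventricular fibroblasts from Sprague-Dawley rat pups aged 1 to 2 days, starved of serum overnight. The cells were transfected with 50 nM of an antagomiR against miR-142-3p (antagomiR, 3 libraries) or with 50 nM of a negative control oligonucleotide (NC, 3 libraries), both carried by the same lipid reagent. An antagomiR is a modified antisense RNA that pairs with a mature microRNA and blocks it. The labels do not say whether the libraries came from separate cell isolations, so each p-value measures only the spread between libraries, which may be technical. No batch, and no time between transfection and harvest, was given in the sources used here. NC replicate 3 stood apart from the other NC libraries, with 73.7% of the antagomiR mean of summed macrophage and leukocyte markers, against 18.1% for the mean of NC replicates 1 and 2. Group ratios of the 10 genes that it moves by over 1.5 times are therefore also given without it.

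IL-1 family cytokines are early signals of tissue injury and infection. IL-1α and IL-1β, encoded by Il1a and Il1b, bind the receptor chain IL1R1, which then recruits the accessory chain IL1RAP and signals through MyD88 and IRAK kinases to NF-kB, and IL1RN occupies the same receptor without signalling. IL-33 uses the same accessory chain with the receptor ST2, the product of Il1rl1. IL-1β and IL-18 are made as inactive precursors, which caspase-1 cleaves inside an inflammasome such as the one assembled by the sensor NLRP3. In the heart, fibroblasts are known as cells that respond to IL-1, and macrophages as a main source of IL-1β.

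The mature microRNA that the oligonucleotide targets is printed here because it defines the treatment, with its seed, bases 2 to 8, in capitals (RefSeq, GRCr8, chr10:73055155-73055177, plus strand). Polyadenylated libraries do not measure it, so its silencing was not checked by these data.
rno-miR-142-3p: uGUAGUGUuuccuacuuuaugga

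RefSeq promoters, 250 bases before to 50 after a transcript start in GRCr8, were found for all 10 genes, with 12 entries in all, since Il1rap and Il33 have 2 starts each. Those of the 3 genes that rose most by the log2(FPKM + 1) measure used below are printed first, followed by the downstream start of Il33, the cytokine gene that fell. Capitals mark matches on either strand to the letters TGANTCA, the AP-1 motif, and to TATAAA, the TATA box. Il1a lies at chr3:136989968-136990267 and Il1b at chr3:137036532-137036831, both on the minus strand. Il1rn lies at chr3:27520072-27520371 and Il33 at chr1:237134696-237134995, both on the plus strand.
Il1b: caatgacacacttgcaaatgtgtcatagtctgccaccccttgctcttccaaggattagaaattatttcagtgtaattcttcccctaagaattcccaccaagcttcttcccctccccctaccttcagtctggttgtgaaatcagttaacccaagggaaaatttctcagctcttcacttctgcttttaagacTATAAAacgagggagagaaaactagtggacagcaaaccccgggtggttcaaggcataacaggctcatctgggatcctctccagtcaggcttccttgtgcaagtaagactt
Il1a: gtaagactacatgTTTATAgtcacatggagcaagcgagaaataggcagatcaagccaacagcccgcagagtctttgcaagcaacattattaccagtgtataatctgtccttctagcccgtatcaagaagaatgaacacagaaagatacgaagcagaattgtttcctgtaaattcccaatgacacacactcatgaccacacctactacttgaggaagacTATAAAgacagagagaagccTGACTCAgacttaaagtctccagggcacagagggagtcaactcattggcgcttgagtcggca
Il1rn: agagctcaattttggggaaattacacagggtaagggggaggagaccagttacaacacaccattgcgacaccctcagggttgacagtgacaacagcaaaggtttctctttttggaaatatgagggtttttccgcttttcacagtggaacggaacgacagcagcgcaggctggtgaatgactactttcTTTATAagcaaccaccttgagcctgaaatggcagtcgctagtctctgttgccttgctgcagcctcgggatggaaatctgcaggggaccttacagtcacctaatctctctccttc
Il33: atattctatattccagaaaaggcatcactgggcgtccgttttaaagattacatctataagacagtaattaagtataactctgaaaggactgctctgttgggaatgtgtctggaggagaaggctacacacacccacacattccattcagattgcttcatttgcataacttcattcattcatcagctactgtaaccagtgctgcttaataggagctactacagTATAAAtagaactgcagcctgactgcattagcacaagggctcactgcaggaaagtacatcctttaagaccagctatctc

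In the Il1a window the AP-1 match began 12 bases before the start, with TATA matches at 32 bases before it and, on the other strand, at 237. The Il1b window held a TATA match 60 bases before the start, that of Il33 held one at 29 bases, and that of Il1rn held one at 64 bases on the other strand. These matches did not overlap each other. The upstream start of Il33, not printed, held no match to either motif. Of the other windows not printed, Il18 held an AP-1 match 5 bases after the start. Il1rl1 held a TATA match 246 bases before the start on the other strand, and the rest held none. Of 33469 rat promoters of the same length, 7.33% held the AP-1 and 14.2% the TATA letters. The letters describe the sequence only and say nothing of whether a factor binds there.

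All 10 genes passed the test in the comparison of antagomiR with NC, which asks how transcript levels differ with the miR-142-3p antagomiR. Il1a, Il1b, Il18, Il1rn, Il1r1, Nlrp3 and Casp1 rose, and Il33, Il1rap and Il1rl1 fell. The test was limma on log2(FPKM + 1), where FPKM scales the fragments of a gene to its length and to the library total, and a gene was called at a Benjamini-Hochberg adjusted p under 0.05 over the 12024 genes whose mean reached 1 FPKM. Of those genes 17.5% were called higher and 9.21% lower, 26.7% in all, so calls were common in this comparison. Il1a, Il1b and Casp1, with NC means of 0.0708, 0.637 and 0.740 FPKM, reached the mean of 1 FPKM only through their antagomiR levels. Of the 10 genes 9 were called with no filter, against 15.7% of all genes, and 9 with robust variances, against 26.8%. The median log2 fold change, antagomiR minus NC, was 1.30 over the 10 genes and 0.06 over all tested genes. The ranges of the groups were apart for all 10 genes, and for 44.6% of all tested genes.

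**Figure D1:**
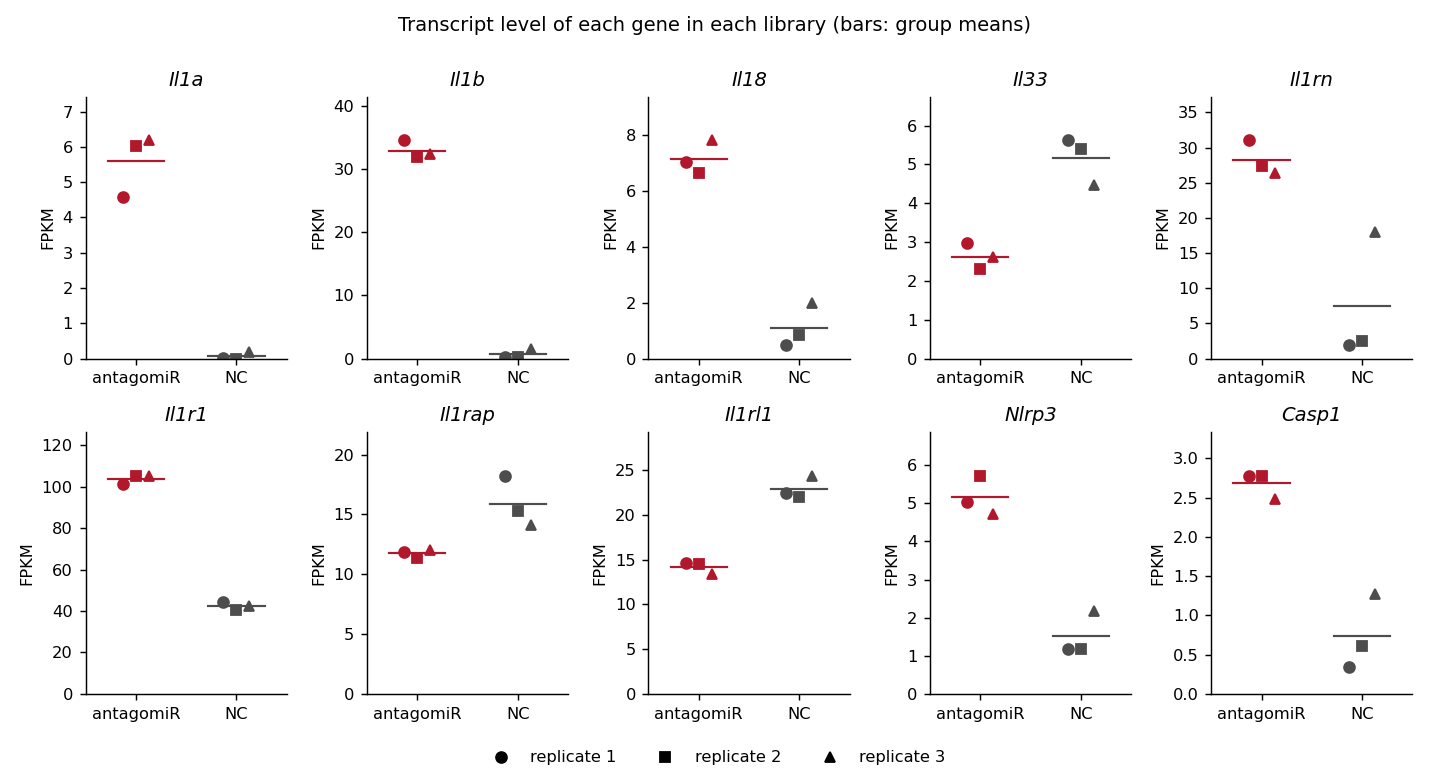
FPKM (vertical axis, linear, from 0) of the 10 genes in the 3 antagomiR and the 3 NC libraries, with 1 symbol per replicate number and bars at the group means. In every panel the groups are apart, and in the Il1rn panel NC replicate 3 stands at 17.9 FPKM, far above the other two NC libraries.

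Il1b, which encodes the precursor of IL-1β, had the largest rise of the 10 genes on the log2(FPKM + 1) scale. By the ratio of summed fragments Il1a was ahead, at 85.3 against 53.9 for Il1b, or 471 against 144 without NC replicate 3. Il1a was also ahead in the log2 fold change with a pseudocount of 0.01 (7.06 for Il1a and 6.26 for Il1b) and with limma voom on recovered fragments (7.06 and 6.27). Il1b was at 34.6, 32.0 and 32.4 FPKM in antagomiR replicates 1 to 3, against 0.193, 0.258 and 1.46 FPKM in NC replicates 1 to 3. Behind these levels stood 1230, 1258 and 1183 fragments with the antagomiR and 6, 10 and 46 in NC. The antagomiR libraries were alike, with a coefficient of variation of 4.36%, whereas NC replicate 3 lay several times above the other two NC libraries. Its log2 fold change of 4.46 (standard error 0.26, limma adjusted p = 7.7e-05) was the 8th most positive of the 12024 tested. The ratio of the group means was 51.8, or 146 without NC replicate 3. In mRatBN7.2 the gene occupies positions 116577010 to 116583415 of chromosome 3, and 40187 bases part it from Il1a.

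Il1a, whose product can act without cleavage, was at 4.58, 6.02 and 6.19 FPKM in the antagomiR libraries, against 0.0268, 0 and 0.185 FPKM in the NC libraries. This was 195, 284 and 271 fragments with the antagomiR and 1, 0 and 7 in NC, so in NC the transcript was at the edge of detection. Il1a rose by 2.62 on the log2 scale (standard error 0.13, limma adjusted p = 4.5e-05). That scale understates the change of a gene so low in NC. From the summed fragments the ratio was 85.3, with an exact 95% interval of 43.1 to 198 that covers counting error only. Of the 8 NC fragments 7 came from NC replicate 3, and without that library the ratio was 471, with an interval of 84.2 to 18609 that rests on 1 NC fragment. With a pseudocount of 0.01 in place of 1 the log2 fold change was 7.06 (adjusted p = 0.0033), and over all alternatives the adjusted p lay between 6.9e-06 and 0.0033.

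Il18 rose as well. It was at 7.02, 6.62 and 7.81 FPKM with the antagomiR, against 0.486, 0.829 and 1.98 FPKM in NC replicates 1 to 3, with the highest NC library well below the lowest antagomiR library. The rise was 2.02 on the log2 scale (standard error 0.24, limma adjusted p = 0.0012), and the ratio of means was 6.51, or 10.9 without NC replicate 3. The levels of Il18 rest on 132, 138 and 151 fragments with the antagomiR and on only 8, 17 and 33 in NC.

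Il33, whose product is stored in the nucleus and released from damaged cells, was the one cytokine gene of the family that fell. Its levels were 2.97, 2.29 and 2.62 FPKM in the antagomiR libraries, against 5.62, 5.39 and 4.48 FPKM in the NC libraries, from 162 to 189 and from 253 to 375 fragments. All antagomiR libraries lay below all NC libraries, and the antagomiR mean was 50.9% of the NC mean. On the log2 scale this was -0.76 (standard error 0.11, limma adjusted p = 0.0025).

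With 3 agonist genes higher and 1 lower, the make-up of the agonist transcripts differed between the groups. FPKM are per gene length, so levels can be set against each other. The summed level of Il1a, Il1b, Il18 and Il33 was 49.2, 46.9 and 49.0 FPKM in the antagomiR libraries, against 6.33, 6.48 and 8.10 FPKM in the NC libraries. Il1b made up 70.4%, 68.1% and 66.1% of that sum with the antagomiR, against 3.05%, 3.98% and 18.0% in NC. Il33 made up 6.03%, 4.89% and 5.36% with the antagomiR, against 88.9%, 83.2% and 55.3% in NC. Il1b was thus the leading agonist transcript in each antagomiR library and Il33 in each NC library, NC replicate 3 included.

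**Figure D2:**
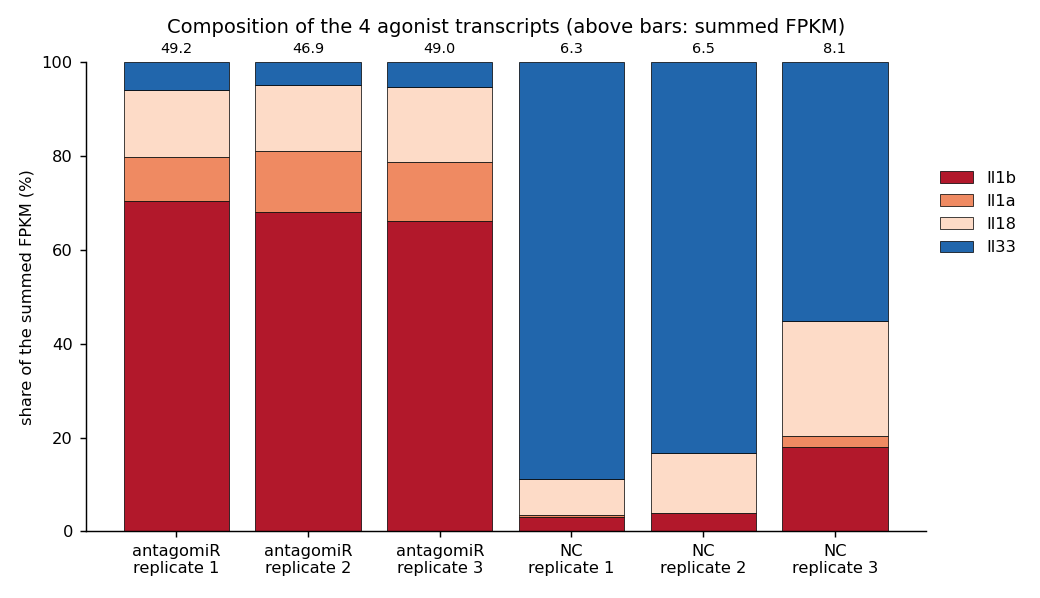
Share of the summed FPKM of Il1b, Il1a, Il18 and Il33 (vertical axis, percent) in each library, with the sum in FPKM above each bar. Il1b fills 66.1% to 70.4% of the antagomiR bars and Il33 fills 55.3% to 88.9% of the NC bars.

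Il1rn, which encodes the receptor antagonist, was at 31.0, 27.4 and 26.4 FPKM in the antagomiR libraries, against 1.95, 2.47 and 17.9 FPKM in the NC libraries. NC replicate 3 was nearer to the antagomiR libraries than to the other NC libraries, though still below them all. At a log2 fold change of 2.34 (standard error 0.65, limma adjusted p = 0.036) this was the weakest call of the 10 genes. The ratio of means was 3.80, or 12.8 without NC replicate 3, where the log2 fold change was 3.19 (adjusted p = 9.4e-07). The call was lost without any other single library, with adjusted p between 0.0907 and 0.119 in those 5 fits, with no filter (0.0773) and with robust variances (0.0751). The gene-level values do not separate the secreted from the intracellular forms of the antagonist.

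Set within each library, Il1rn was below Il1b with the antagomiR and above it in NC. The ratio of Il1rn to Il1b FPKM was 0.896, 0.856 and 0.816 in the antagomiR libraries, against 10.1, 9.57 and 12.3 in the NC libraries. NC replicate 3, where both transcripts were highest among the NC libraries, had the highest ratio. The difference Il1b minus Il1rn on log2(FPKM + 1) averaged 0.22 ± 0.07 with the antagomiR and -1.90 ± 0.90 in NC (SD, n = 3 each). A two-sided exact permutation test gave p = 0.1, the smallest this design allows. The gap between the groups depended on the pseudocount, at 2.12 with 1, 3.28 with 0.1 and 3.59 with 0.01.

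The receptor genes moved in opposite directions. Il1r1, the signalling receptor chain, was at 101, 105 and 105 FPKM in the antagomiR libraries, against 44.4, 40.6 and 42.4 FPKM in the NC libraries. It was the most abundant of the 10 transcripts in both groups, and NC replicate 3 lay between the other two NC libraries. Il1r1 rose by 1.27 on the log2 scale (standard error 0.05, limma adjusted p = 2e-05), and the ratio of means was 2.45 with and without NC replicate 3.

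Il1rap, the accessory chain shared by the IL-1 and IL-33 receptors, was at 11.8, 11.3 and 12.1 FPKM in the antagomiR libraries, against 18.2, 15.3 and 14.1 FPKM in the NC libraries. The ranges did not overlap, and the antagomiR mean was 74.0% of the NC mean. Its log2 fold change was -0.40 (standard error 0.09, limma adjusted p = 0.019). Leaving out antagomiR replicate 1, 2 or 3 ended the call (adjusted p = 0.0645, 0.0747 and 0.0603), as did leaving out NC replicate 2 (0.0525). The direction held in all alternatives run, with adjusted p from 0.003 to 0.0747.

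Il1rl1, which encodes the IL-33 receptor ST2 in membrane and soluble forms that gene-level values do not separate, fell to 14.6, 14.5 and 13.4 FPKM in the antagomiR libraries, against 22.4, 22.0 and 24.4 FPKM in the NC libraries. The log2 fold change of Il1rl1 was -0.66 (standard error 0.06, limma adjusted p = 0.00054), and the antagomiR mean was 61.9% of the NC mean. Both the IL-33 transcript and that of its receptor were thus lower with the antagomiR. Il1r1 and Il1rl1, which moved in opposite directions, lie on chromosome 9 of mRatBN7.2, at 42504735 to 42579937 for Il1r1 and 42697192 to 42727256 for Il1rl1, with 117254 bases between them.

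The ratio of Il1r1 to Il1rap FPKM was 8.55, 9.27 and 8.73 in the antagomiR libraries, against 2.43, 2.66 and 3.00 in the NC libraries, without overlap. The difference Il1rap minus Il1r1 on log2(FPKM + 1) averaged -3.04 ± 0.06 with the antagomiR and -1.37 ± 0.14 in NC (SD, n = 3 each; two-sided exact permutation test, p = 0.1, the smallest possible).

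**Figure D3:**
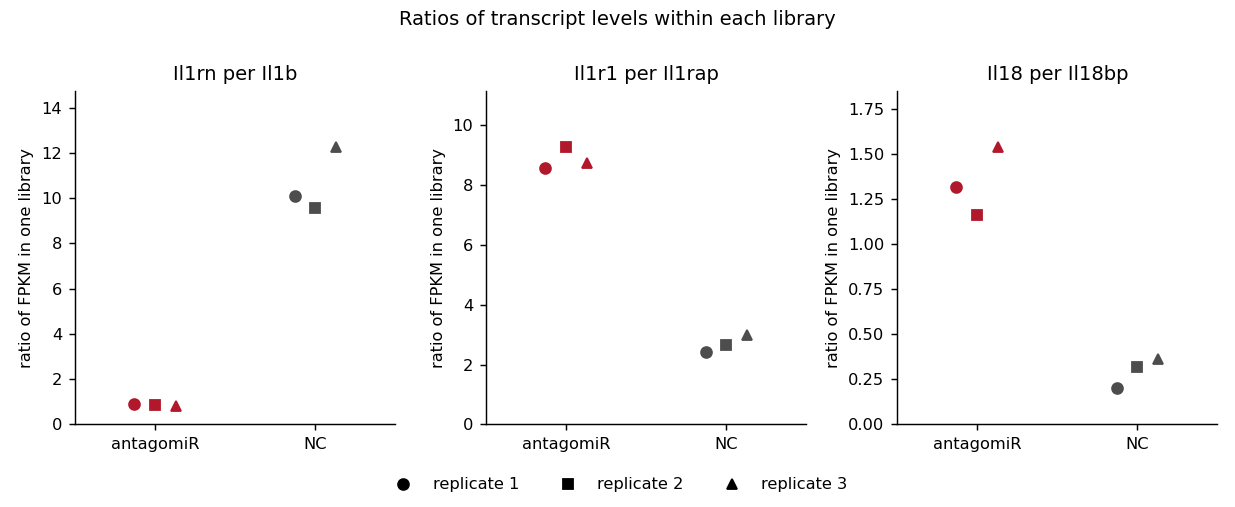
Ratios of FPKM within single libraries (vertical axes, linear, from 0) for Il1rn to Il1b, Il1r1 to Il1rap and Il18 to Il18bp, with 1 symbol per replicate number. Il1rn to Il1b is below 1 in the antagomiR libraries and at 9.57 or more in the NC libraries, and the other 2 ratios are higher in each antagomiR library than in any NC library.

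Both inflammasome genes rose. Nlrp3, the sensor, was at 5.04, 5.73 and 4.73 FPKM in the antagomiR libraries, against 1.17, 1.18 and 2.18 FPKM in the NC libraries. Nlrp3 rose by 1.32 on the log2 scale (standard error 0.16, limma adjusted p = 0.0014). Casp1, the protease that matures IL-1β and IL-18, was at 2.78, 2.78 and 2.49 FPKM with the antagomiR, against 0.345, 0.605 and 1.27 FPKM in NC, from 93 to 112 and from 11 to 41 fragments. Casp1 rose by 1.11 on the log2 scale (standard error 0.19, limma adjusted p = 0.0053). NC replicate 3 was again the highest NC library for both genes, and without it the ratio of means was 4.40 in place of 3.42 for Nlrp3 and 5.65 in place of 3.62 for Casp1. RNA levels do not show whether caspase-1 was active.

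The order of levels also differed between the groups. With the antagomiR the means ran from Il1r1 at 104 FPKM through Il1b at 33.0, Il1rn at 28.3, Il1rl1 at 14.2, Il1rap at 11.7, Il18 at 7.15, Il1a at 5.60 and Nlrp3 at 5.17 to Casp1 at 2.68 and Il33 at 2.63. Of these neighbours the ranges of Il1a and Nlrp3 overlapped, as did those of Casp1 and Il33. In NC the order was Il1r1 at 42.4 FPKM, Il1rl1 at 22.9, Il1rap at 15.9, Il1rn at 7.45, Il33 at 5.16, Nlrp3 at 1.51, Il18 at 1.10, Casp1 at 0.740, Il1b at 0.637 and Il1a at 0.0708. Ranges of neighbours there overlapped from Il1rap through Il1rn to Il33 and from Nlrp3 through Il18 and Casp1 to Il1b. Without NC replicate 3 the NC mean of Il1rn was 2.21 FPKM, below that of Il33 at 5.51 FPKM, and the order of the other genes in NC was as above. Il1b stood second with the antagomiR and second to last in NC, with and without NC replicate 3.

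The other genes of the pathway were taken from 6 lists by role, of which 60 genes were tested. By limma 34 of the 60 (56.7%) rose and none fell, against 17.5% higher and 9.21% lower of all tested genes. Genes with an NC mean under 1 FPKM, such as Nlrc4, Gsdme and several NF-kB outputs, could pass the filter only by being higher with the antagomiR. With no filter 38 of 77 (49.4%) rose and 0 fell, against 15.7% of all genes called in either direction. Among the 60, only Casp12 was lower at an unadjusted p under 0.05, and limma voom on recovered fragments called 0 lower. Unlike the 10 genes above, which all reached the filter, the 95 genes listed include many that are scarcely expressed, and 85 were in the table. The median log2 fold change of the 60 tested was 0.63, against 0.06 over all tested genes. Without NC replicate 3, 42 rose, against 26.5% of all tested genes, and Casp12, an endoplasmic reticulum caspase gene, fell (log2 fold change -0.28, adjusted p = 0.0089), against 13.9% of all tested genes. In that setting 40.4% of all tested genes were called in either direction. Casp12 was also called lower with median-ratio scaling (adjusted p = 0.032) and with quantile normalization (adjusted p = 0.042), where Chuk, an IκB kinase gene, was called lower too (log2 fold change -0.30, adjusted p = 0.04). For Casp12, with all libraries and no such scaling, the log2 fold change was -0.21 (adjusted p = 0.08).

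**Figure D4:**
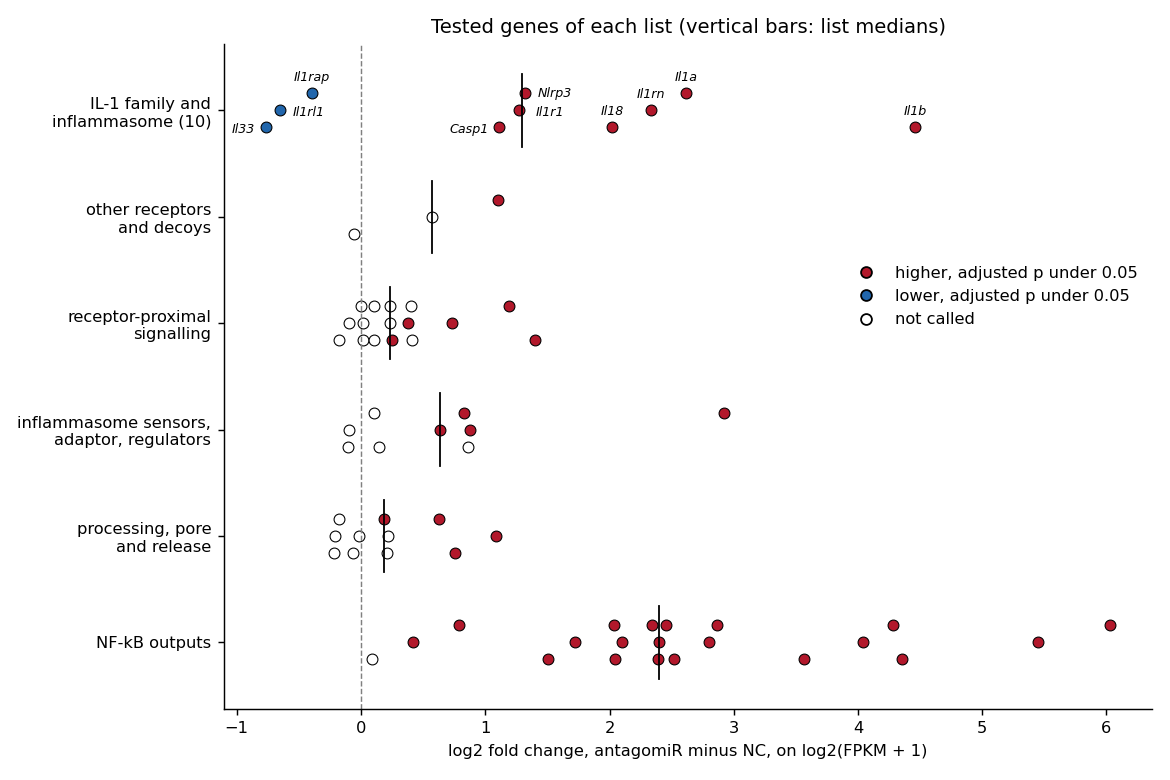
Log2 fold change, antagomiR minus NC on log2(FPKM + 1) (horizontal axis), of the tested genes of the 10-gene family and of the 5 pathway lists with tested genes, with called genes filled and list medians as vertical bars. The 10 named genes run from -0.76 for Il33 to 4.46 for Il1b, and of the 5 pathway lists plotted only the NF-kB outputs have a median above 1.

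Of the other ligand genes of the family none reached the mean of 1 FPKM needed for a test. Il36a, Il36g and Il36rn, of the IL-36 branch, were listed at 0 in every library, which may be a failed estimate, and Il1f10 reached at most 0.151 FPKM. Against 17.5% higher and 9.21% lower among all tested genes, 1 of 3 tested receptor and decoy genes rose and none fell. That was Il1r2, a decoy receptor that binds IL-1 without signalling, at 4.03, 3.25 and 3.41 FPKM with the antagomiR, against 0.972, 0.780 and 1.70 FPKM in NC (log2 fold change 1.10, standard error 0.16, limma adjusted p = 0.0032). Il1rl2, the IL-36 receptor gene, was at 30.2 to 32.9 FPKM with the antagomiR and 28.8 to 35.8 FPKM in NC and was not called (-0.05, adjusted p = 0.69). The IL-18 receptor genes Il18r1 and Il18rap reached at most 0.467 FPKM.

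Il18bp, which encodes a soluble protein that neutralises IL-18, was at 5.33, 5.70 and 5.07 FPKM with the antagomiR, against 2.39, 2.59 and 5.41 FPKM in NC. It was not called (log2 fold change 0.57, adjusted p = 0.11) but was called without NC replicate 3 (0.87, adjusted p = 0.00015). The ratio of Il18 to Il18bp FPKM was 1.32, 1.16 and 1.54 in the antagomiR libraries, against 0.203, 0.319 and 0.366 in the NC libraries. The NC ratios rest on 8, 17 and 33 Il18 fragments. The difference Il18 minus Il18bp on log2(FPKM + 1) averaged 0.36 ± 0.18 with the antagomiR and -1.09 ± 0.11 in NC (SD, n = 3 each). A two-sided exact permutation test gave p = 0.1, the smallest possible. The gap between the groups was 1.45 with a pseudocount of 1, 2.08 with 0.1 and 2.20 with 0.01.

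Of 16 tested genes of receptor-proximal signalling 5 rose and none fell, against 17.5% and 9.21% of all tested genes. The list had a median of 0.24. Irak3, an inhibitory member of the IRAK family, had the largest rise of the list on the log2(FPKM + 1) scale, at 29.4, 34.4 and 33.0 FPKM with the antagomiR and 11.7, 11.7 and 11.2 FPKM in NC (log2 fold change 1.40, standard error 0.07, limma adjusted p = 4.5e-05). Map3k8, a kinase upstream of ERK, rose by 1.19 (adjusted p = 0.0001) and had the larger ratio of means, 2.87 against 2.79 for Irak3. The adaptor gene Myd88 rose by 0.73 (adjusted p = 0.016). The kinase genes Irak4 and Map3k3 rose by 0.38 and 0.25 (adjusted p = 0.0053 and 0.0097), and Map3k3 lost its call with quantile normalization (adjusted p = 0.053). Traf6, a ubiquitin ligase that acts downstream of the IRAK kinases, was at -0.09 and the kinase gene Map3k7 at 0.02, neither of them called. Myd88 lost its call without NC replicate 2 and without antagomiR replicate 1 or 3 (adjusted p between 0.0611 and 0.0641). Without NC replicate 3 the list had 9 risen genes, against 26.5% of all tested genes.

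Of 9 tested genes for inflammasome sensors, the adaptor and regulators 4 rose and none fell, against 17.5% and 9.21% of all tested genes. The list had a median of 0.64. Gbp5, a guanylate-binding protein known to promote NLRP3 assembly, was at 13.6, 15.0 and 14.4 FPKM with the antagomiR and 0.711, 0.962 and 1.44 FPKM in NC (log2 fold change 2.92, limma adjusted p = 3e-05). The sensor genes Nlrp1a and Nlrc4 rose by 0.83 and 0.88 (adjusted p = 0.0021 and 0.026), and Txnip, a thioredoxin-binding protein gene, by 0.64 (adjusted p = 0.0016). Pycard, the adaptor that links NLRP3 to caspase-1, was at 8.28, 8.38 and 6.97 FPKM with the antagomiR and 2.25, 3.88 and 6.37 FPKM in NC, and was not called (0.86, adjusted p = 0.055). It was called without NC replicate 3 (1.15, adjusted p = 0.0016) and with voom on recovered fragments (1.03, adjusted p = 0.026). Without NC replicate 3, 6 genes of the list rose, against 26.5% of all tested genes. Nek7, an NLRP3 partner, was at -0.10 and not called. Nlrc4 lost its call in 7 alternatives, among them those without each library other than NC replicate 3 (adjusted p between 0.0727 and 0.09). It was at 0.298, 0.156 and 1.14 FPKM in NC, and the ratio of means was 3.24, or 7.56 without NC replicate 3.

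Of 11 tested genes for processing, the pore and release 4 rose and none fell, against 17.5% and 9.21% of all tested genes. The list had a median of 0.19. Serpinb9, a protease inhibitor gene, was at 42.0, 43.4 and 40.6 FPKM with the antagomiR and 18.5, 17.1 and 22.4 FPKM in NC (log2 fold change 1.09, limma adjusted p = 0.00036). The pore-forming gasdermin genes Gsdmd and Gsdme rose by 0.63 and 0.76 (adjusted p = 0.0041 and 0.0049). Gsdmd was at 49.8, 50.8 and 48.4 FPKM with the antagomiR and at 27.6, 31.6 and 36.9 FPKM in NC, well above Casp1 in every library. Casp4, a caspase gene of the non-canonical inflammasome, rose by 0.19 (adjusted p = 0.037) and lost that call in 9 of 16 alternatives.

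NF-kB outputs known from fibroblasts given IL-1 were the list with the most calls, 20 of 21 risen and none fallen. Over all tested genes 17.5% rose and 9.21% fell. The median log2 fold change of the list was 2.40. Csf2, Nos2, Cxcl6, Ccl20, Cxcl2, Vcam1, Il6 and Tnfaip3 had NC means under 1 FPKM. They passed the filter only through their antagomiR levels, so they could enter the test only as higher. Nos2, the inducible nitric oxide synthase gene, was at 17.4, 15.1 and 14.7 FPKM with the antagomiR and at 0.0268, 0.0107 and 0 FPKM in NC (log2 fold change 4.04, limma adjusted p = 1.2e-06). Cxcl1 and Cxcl6, chemokine genes, rose by 6.03 and 3.57, Zc3h12a, an RNase gene that limits cytokine transcripts, by 2.80, Sod2, a mitochondrial superoxide dismutase gene, by 2.45, and Nfkbiz, a nuclear NF-kB regulator gene, by 2.40. Lif, a cytokine of the IL-6 family, was the gene not called, at 0.09 (adjusted p = 0.43). The list was written with results for some of its genes known and is no independent evidence of a direction. Without NC replicate 3 it again had 20 risen genes, against 26.5% of all tested genes.

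Among all other tested genes, those with the profile most like Il1b over the 6 libraries were Ccl2, C1s and Cfb, at Euclidean distances of 0.30, 0.49 and 0.59 between mean-centred log2(FPKM + 1) values. Their log2 fold changes were 4.36, 4.25 and 4.02. Ccl2 encodes a monocyte chemokine, and C1s and Cfb encode complement proteases. Most like Il33 were C1ql3, Paqr6 and Rgcc, at distances of 0.13, 0.14 and 0.15, with log2 fold changes of -0.86, -0.69 and -0.75. With 2 groups such likeness mostly says that the genes differed between them by a like amount.

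Transcripts of other cell types were present. In bulk RNA fewer cells of a type and less RNA per cell cannot be told apart. All 10 fibroblast markers were detected, with summed levels, mostly of collagens, of 11919 to 12171 FPKM in antagomiR libraries and 12672 to 12909 FPKM in NC libraries. Of these markers 5 rose, among them Pdgfra by 1.59, Dcn by 1.37 and Postn by 0.89, and 3 fell, namely Col1a2, Thy1 and Vim. Over all tested genes 17.5% rose and 9.21% fell. Cardiomyocyte markers summed to 302 to 362 FPKM with the antagomiR and 393 to 436 FPKM in NC, mostly Tnnt2, which fell, while Myh7 and Myl2 rose. Summed mural, epicardial and endothelial markers were at 219 to 220, 10.5 to 13.7 and 3.98 to 4.29 FPKM with the antagomiR and 239 to 261, 15.0 to 16.7 and 2.30 to 2.46 FPKM in NC. The mural sum was mostly Pdgfrb, which was not called, while Notch3, Cspg4 and Myh11 fell (log2 fold changes -0.67, -0.51 and -0.65). Of the tested epicardial markers Upk3b and Msln fell (-0.71 and -0.35) and Wt1 was not called. Tek, the 1 endothelial marker tested, rose by 0.32. Neutrophil markers summed to 2.83 to 4.53 FPKM with the antagomiR and 0.0504 to 0.869 FPKM in NC, with Mpo, S100a9 and Elane listed at 0. Camp, the 1 neutrophil marker tested and most of the antagomiR sum, rose by 1.80 (limma adjusted p = 0.00038), with 107 fragments in the antagomiR libraries and 1 in the NC libraries. With an NC mean of 0.029 FPKM, Camp passed the filter only through its antagomiR levels and could enter the test only as higher. Csf3r, below the filter, had 125 fragments with the antagomiR and 45 in NC. Lymphocyte markers summed to 8.43 to 9.34 FPKM with the antagomiR and 7.67 to 8.87 FPKM in NC, mostly Gata3, with Cd3e listed at 0. The 2 that were tested differed in direction. Gata3 fell (log2 fold change -0.23, limma adjusted p = 0.032) and Il7r rose (1.10, adjusted p = 0.011). The ratio of means of Il7r was 3.40, or 6.10 without NC replicate 3. Il7r, with an NC mean of 0.819 FPKM, also passed the filter only through its antagomiR levels. Mast cell markers summed to 1.09 to 1.18 FPKM with the antagomiR and 1.04 to 1.16 FPKM in NC. Of the 7 mast cell markers in the table, Kit and Gata2 were detected in every library and Hdc in 5, Cpa3, Ms4a2, Fcer1a and Tpsb2 were listed at 0, and none reached 1 FPKM. Totals recovered from the FPKM values ran from 22215475 to 24622667 fragments in antagomiR libraries and from 19472409 to 24248843 in NC libraries.

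Part of the macrophage and leukocyte markers rose with the family. Of 17 tested markers 7 rose, none fell and 10 were not called by limma, where 17.5% of all tested genes rose. Without NC replicate 3, 16 of the markers rose, against 26.5% of all tested genes. The summed level of the 18 markers was 1132, 1015 and 1071.5 FPKM in the antagomiR libraries, against 157, 231 and 790.5 FPKM in the NC libraries. Among the NC libraries 17 of the 18 markers were highest in replicate 3. Single markers differed in this: 7 of the 18, C1qa, C1qb, C1qc, Mrc1, Cd74, Cx3cr1 and Cd68, stood in NC replicate 3 at 117% to 246% of their antagomiR means, whereas Adgre1 stood at 19.3%, and Lyz2 made up 49.3% of the sum in that library. Of the 7 family genes that rose, 6 were also highest in replicate 3 among the NC libraries, Il1r1 being the exception. The share of all tested genes that were highest in NC replicate 3 was not computed. Neither count can therefore show whether this was particular to these genes or general to that library.

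In NC replicate 3 Il1rn stood at 63.4% of its antagomiR mean, Casp1 at 47.4%, Nlrp3 at 42.2%, Il1r1 at 40.8%, Il18 at 27.7%, Il1b at 4.43% and Il1a at 3.31%. In the mean of NC replicates 1 and 2 the leukocyte sum was at 18.1% of the antagomiR mean, Il1rn at 7.81%, Casp1 at 17.7%, Nlrp3 at 22.7%, Il1r1 at 40.9%, Il18 at 9.19% and Il1b at 0.683%. The part of leukocyte transcripts in the rise of these 7 genes was not tested.

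**Figure D5:**
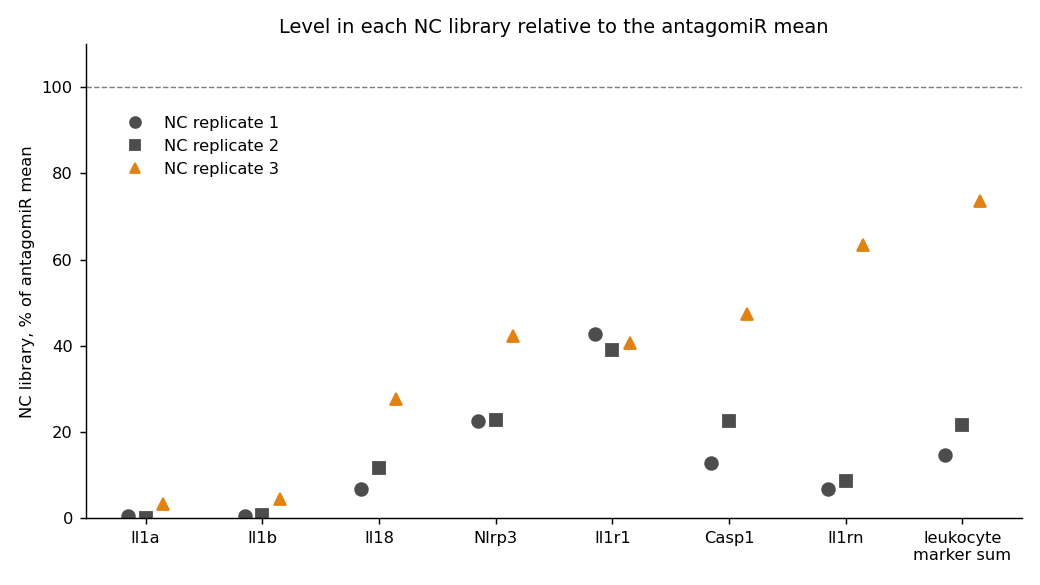
Level in each NC library as a percent of the antagomiR mean (vertical axis, linear, from 0) for the 7 risen genes and for the summed leukocyte markers, with 1 symbol per NC library and a dashed line at 100%. NC replicate 3 is at 73.7% for the marker sum and 63.4% for Il1rn but at 4.43% for Il1b and 3.31% for Il1a.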

How the data were processed

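RNA-seq libraries of 3 antagomiR and 3 NC cultures were analysed. The authors deposited one table of FPKM per gene and library, not counts. Per the submitters' processing notes the tools were HISAT2, HTSeq, edgeR, cutadapt and FastQC, with no versions, and the build was mRatBN7.2. The annotation release and strand setting are not given in the sources used here, so overlapping, antisense and near-identical genes may share reads. Tab1, a widely expressed gene, is listed at or near 0, so a listed 0 can be a failed estimate. Columns were matched to samples by name, and 0 columns were unassigned. Library totals and fragment counts were recovered from the FPKM values, whole within 0.01 for all but 1 of 20134 genes above 0, and summed to 99.7% of each library total. Between replicates the counts differed by more than sampling noise (chi-square per degree of freedom 3.84 or more). Intervals cover counting error only. A gene of 1 kb with 3 fragments has 0.122 to 0.154 FPKM.

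The test was limma 3.58.1 in R 4.3.3 on log2(FPKM + 1), two-sided, with a variance trend and no replicate block, over the 12024 genes whose mean reached 1 FPKM, with p adjusted over all of them. On counts simulated with a dispersion of 0.01 and 200 changed genes, it called 190 genes, 15 of them unchanged. It recovered 68.7% of 1.5-fold, 95.5% of 2-fold and 98.5% of 4-fold changes. The simulation had far fewer changed genes than were called here and no library that stood apart. It therefore does not give the error rate for these data. Within-library differences and sequences were computed in Python 3.11.15. Alternatives were pseudocounts of 0.1 and 0.01, no filter, a minimum of 0.1 FPKM, quantile normalization, median-ratio scaling, no trend, robust variances, a replicate block, limma voom on recovered fragments and leaving out each library. All 10 genes were named, and from each pathway list every called gene, or the 6 with the smallest p where more than 6 were called, besides the 3 genes nearest in profile to Il1b and to Il33. Not called genes named beside them, and Casp12, were chosen after their values were seen. The 10 genes and all lists were chosen with earlier results of these data known.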

Additional observations from a re-analysis of the deposited data

How the results depend on the processing

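All 10 genes kept their direction in all 16 alternatives. Of 160 pairs of a gene and an alternative, 149 also kept the call, and the 11 losses were 7 for Il1rn and 4 for Il1rap. The count of called family genes was 9 with no filter and with robust variances, 8 to 10 when 1 library was left out, and 10 otherwise. The count of pathway genes, 34 of 60, lay between 31 and 43 when 1 library was left out. It was 38 of 77 (49.4%) with no filter and 37 of 69 (53.6%) at a minimum of 0.1 FPKM, against 15.7% and 21.8% of all genes. In the other alternatives it was 33 to 37 of 60. Over all genes 3216 were called (2109 up, 1107 down), and 1883 to 4862 when 1 library was left out, lowest without antagomiR replicate 3 (2033 and 2000 without antagomiR replicates 1 and 2) and highest without NC replicate 3. The cause was not tested. The split was 1576 up and 1484 down with median-ratio scaling and 1413 up and 1869 down with quantile normalization, and quantile normalization shifted the all-gene median by -0.11 on the log2 scale. After quantile normalization Il1rap was at -0.50 and Il1b at 4.23.

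The correlation of deviations from group means was -0.16, -0.06 and -0.04 between same-numbered libraries, against -0.06 to 0.13 between the rest. With 3 libraries per group these values cannot decide whether replicate numbers pair the samples. With the replicate block 2380 genes (19.8% of those tested), 10 family genes and 33 pathway genes were called. For the within-library differences the block gave an exact sign-flip p of 0.25, the smallest it allows, at 2.12 for Il1b minus Il1rn, -1.67 for Il1rap minus Il1r1 and 1.45 for Il18 minus Il18bp. None of these differences changed sign in any alternative, though the first and the last were larger with a smaller pseudocount. Depth limits Il1a in NC most, with 0 to 7 fragments.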

Other observations

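Pairings of a receptor with its ligand or decoy that belong to no comparison above were also computed. The ratio of Il1rl1 to Il33 FPKM was 4.93, 6.33 and 5.11 in the antagomiR libraries, against 3.98, 4.07 and 5.44 in the NC libraries, and the ranges overlapped although both transcripts were lower with the antagomiR. The ratio of Il1r1 to its decoy Il1r2 was 25.1, 32.3 and 30.9 in the antagomiR libraries, against 45.7, 52.0 and 24.9 in the NC libraries, so here too NC replicate 3 stood apart from the other NC libraries and the ranges overlapped.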
